A study of Mus musculus with 10 samples.

Results

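Skeletal muscle carries developmental versions of its contractile proteins, and 7 genes that encode such proteins or mark developing fibres were described here across the quadriceps of old mice: *Myh3*, *Myh8*, *Myl4*, *Actc1*, *Tnnt2*, *Myl6b* and *Nes*. They were chosen by name, with earlier results of these data known, from 24063 gene symbols in the deposited tables. For each symbol 1 transcript was used, and all 7 genes were among the 13880 with enough counts to be tested. The study gave wild-type C57BL mice aged 17 to 20 months either plain drinking water (Control) or water holding a supplement called 1C-MIM, whose composition the labels do not give, for 1 to 3 months. The tibialis anterior was later injured, and RNA was sequenced from the quadriceps, which was not injured, in 5 Control and 5 1C-MIM animals. Each library came from a separately numbered animal, so the spread and the p-values below are between these animals. The tests take the animals as independent units of treatment, which was not tested. Sex and the time from injury to collection are not given.

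The sarcomere is built from gene families whose members replace one another as a fibre matures. Embryonic and perinatal myosin heavy chains, an atrial type light chain, cardiac actin and cardiac troponin T come first in limb muscle, and adult fast or slow forms take their place after birth. The early forms are known to return in regenerating fibres, and embryonic myosin heavy chain is a common histological marker of new fibres.

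In the quadriceps, 6 of the 7 genes were lower in 1C-MIM than in Control animals and none was higher. Called lower means an adjusted p under 0.05 in edgeR's quasi-likelihood test over all tested genes, and 11.8% of the tested genes were called lower, 9.78% higher and 21.6% either way. The groups did not overlap for the same 6 genes, where the 1C-MIM group lay wholly below the Control group for 7.98% of all tested genes and wholly above it for 6.6%. The median log2 fold change of the 7 was -1.48, beside 0.0009 over all tested genes. *Myh3*, *Myh8*, *Myl4*, *Actc1* and *Tnnt2* were each lower by more than 2-fold, a size of decrease that was called in 1.55% of the tested genes. Because the 7 were chosen with earlier results known, these comparisons with all tested genes are descriptions and not independent support. *Myl6b* was lower by a smaller amount, and *Nes* did not pass the test. These are bulk samples, so fewer fibres with a transcript and less of it per fibre cannot be told apart.

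**Figure D1:**
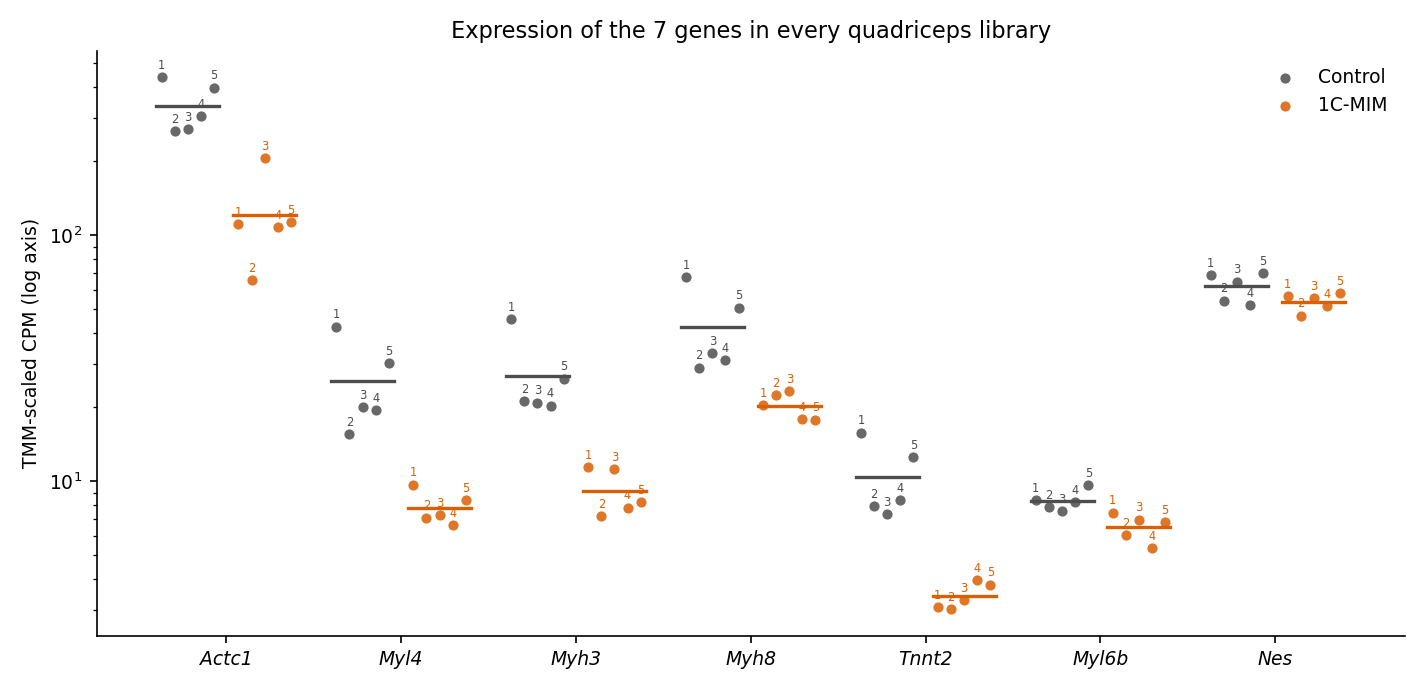
Expression of the 7 genes in each library, in CPM scaled by TMM on a log axis; each point is 1 animal with its replicate number, and each dash is the group mean. Control 1 and Control 5 are the 2 highest Control animals for all 7 genes, for example *Actc1* (439 and 398 CPM) and *Tnnt2* (15.8 and 12.5 CPM), and *Nes* is the only gene whose groups overlap.

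The myosin heavy chains are the motor proteins of the thick filament. *Myh3* encodes the embryonic form. It had 45.5, 21.1, 20.9, 20.3 and 26.1 CPM (counts per 1000000, scaled by TMM) in Control animals 1 to 5, and 11.4, 7.21, 11.2, 7.805 and 8.20 CPM in 1C-MIM animals 1 to 5. Control 1 stood well above the other Control animals, and every 1C-MIM animal lay below every Control animal. The mean was 26.8 ± 10.7 CPM in Control and 9.17 ± 1.99 CPM in 1C-MIM (SD, n = 5 each), a 2.92-fold difference (log2 fold change -1.54 with SE 0.24, adjusted p = 0.00228 by edgeR).

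*Myh8* encodes the perinatal or neonatal heavy chain. Its Control values were 67.6, 29.0, 33.2, 31.0 and 50.8 CPM, and its 1C-MIM values were 20.35, 22.4, 23.2, 17.8 and 17.8 CPM. Control 1 and Control 5 were the highest again, and the groups did not overlap. The means of 42.3 ± 16.6 and 20.3 ± 2.51 CPM (SD, n = 5 each) differed 2.08-fold (log2 fold change -1.06 with SE 0.23, adjusted p = 0.00979 by edgeR). Without Control 1 and Control 5 the log2 fold change of *Myh8* was -0.61, and it was still called lower (edgeR adjusted p = 0.00199, where p over all alternatives for *Myh8* ranged from 1.12e-05 to 0.193).

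Both genes lie in the cluster of skeletal myosin heavy chains on chromosome 11. The promoters, taken here as the 250 bases before the RefSeq start in GRCm38.p6, are shown for the 5 genes that were lower by more than 2-fold. Capitals mark 3 kinds of motif searched on both strands: the E-box (CANNTG) bound by myogenic factors, the MEF2 site and the CArG box bound by serum response factor. Promoters are printed in the direction of transcription, and positions are counted back from the start.
Myh3, chr11:67078050-67078299, plus strand: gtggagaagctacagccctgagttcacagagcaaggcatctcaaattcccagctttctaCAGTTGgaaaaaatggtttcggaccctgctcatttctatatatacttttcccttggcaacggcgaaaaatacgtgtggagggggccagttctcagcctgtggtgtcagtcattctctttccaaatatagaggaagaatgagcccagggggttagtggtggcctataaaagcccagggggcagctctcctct
Myh8, chr11:67276874-67277123, plus strand: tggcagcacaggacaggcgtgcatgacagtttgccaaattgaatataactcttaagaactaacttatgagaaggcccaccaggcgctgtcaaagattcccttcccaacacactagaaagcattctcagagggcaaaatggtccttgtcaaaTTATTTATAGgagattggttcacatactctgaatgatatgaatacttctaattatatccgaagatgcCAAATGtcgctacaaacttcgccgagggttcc
The *Myh3* window held 1 E-box, at -191 to -186. The *Myh8* window held an E-box at -32 to -27 and a MEF2 match, TTATTTATAG, at -99 to -90. Of all 32851 promoters of this length, 66.2% held an E-box and 2.92% a MEF2 match, so an E-box is common in such windows. A match describes the sequence and is not evidence of binding.

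The adult heavy chains of the same cluster went the other way or did not pass the test. In chromosomal order *Myh3* is followed by *Myh2*, *Myh1*, *Myh4*, *Myh8* and *Myh13*. *Myh1*, the 2X chain, rose from 3164 ± 424 to 4237 ± 371 CPM (SD, n = 5 each; log2 fold change 0.42 with SE 0.09, adjusted p = 0.00678 by edgeR). *Myh4*, the 2B chain that dominates this muscle, rose by 0.32 on the log2 scale (SE 0.07, edgeR adjusted p = 0.00719). *Myh2*, the 2A chain, had a log2 fold change of 0.55 with an edgeR adjusted p of 0.0538. *Myh13*, known from extraocular muscle, had 0.48 with an edgeR adjusted p of 0.0608. The slow chain *Myh7*, which lies elsewhere, had -0.57 with an SE of 0.65 and did not pass the test. The adult chains were read in the reported fit only. In a fit with the trend with transcript length removed, *Myh3* went from -1.54 to -1.67 and *Myh8* from -1.06 to -1.21. *Myh1* and *Myh4*, of similar length, were not read in that fit.

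**Figure D2:**
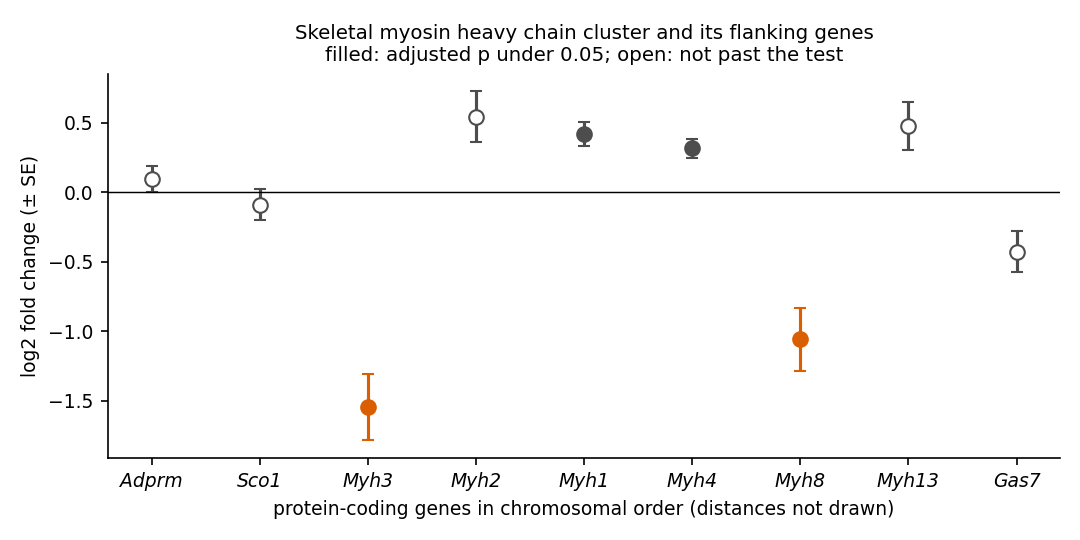
Log2 fold change of 1C-MIM against Control (y axis, bars are SE) for the protein-coding genes of the myosin cluster in chromosomal order, with a gap between genes that is not to scale. *Myh3* (-1.54) and *Myh8* (-1.06) lie below 0 on either side of *Myh2*, *Myh1* and *Myh4*, of which *Myh1* (0.42) and *Myh4* (0.32) passed the test.

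Heavy chain genes resemble one another in sequence, and the labels do not say how reads that fit several genes were counted. Of the 50-base windows of the *Myh8* transcript, 21.4% also occur in transcripts of other genes, most often *Myh2*, *Myh1* and *Myh4*. The share was 4.81% for *Myh3*, most often with *Myh13*, *Myh2* and *Myh1*. The levels of *Myh8* and, with its smaller share, *Myh3* are therefore uncertain to the extent that reads of the far more abundant adult chains could be counted for them. *Myh4* stood at 10051 CPM per kilobase of transcript in Control animals, against 6.88 for *Myh8*.

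Light chains wrap the lever arm of the myosin head, and the essential light chains have developmental, fast and slow forms. *Myl4* encodes the embryonic and atrial form. Its Control values were 42.5, 15.5, 20.04, 19.5 and 30.2 CPM, and its 1C-MIM values 9.67, 7.11, 7.27, 6.64 and 8.40 CPM. The lowest Control animal was above the highest 1C-MIM animal. The means were 25.5 ± 10.9 and 7.82 ± 1.22 CPM (SD, n = 5 each), a 3.26-fold difference that was the largest of the 7 genes (log2 fold change -1.71 with SE 0.26, adjusted p = 0.0021 by edgeR). Among all tested genes, 40 had a larger decrease than *Myl4*.
Myl4, chr11:104550413-104550662, plus strand: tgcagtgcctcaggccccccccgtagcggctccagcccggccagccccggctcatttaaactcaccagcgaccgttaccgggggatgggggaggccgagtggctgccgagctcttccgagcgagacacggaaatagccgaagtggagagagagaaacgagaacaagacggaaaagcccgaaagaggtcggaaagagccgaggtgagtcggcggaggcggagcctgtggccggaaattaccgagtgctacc
None of the 3 motifs occurred in this *Myl4* window.

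*Myl6b* encodes the light chain known as slow-twitch muscle A, which is also found in embryonic and non-muscle tissue. Control values were 8.35, 7.83, 7.54, 8.21 and 9.63 CPM. The 1C-MIM values were 7.46, 6.045, 6.97, 5.34 and 6.81 CPM. The groups did not overlap, but Control 3 at 7.54 CPM and 1C-MIM 1 at 7.46 CPM were close. *Myl6b* had means of 8.31 ± 0.803 and 6.53 ± 0.837 CPM (SD, n = 5 each), 1.27-fold apart (log2 fold change -0.35 with SE 0.10, adjusted p = 0.0302 by edgeR). This call was lost when Control 4 or 5 was left out, or any of the 1C-MIM animals 2, 3 and 4, with log2 fold changes from -0.37 to -0.28 and adjusted p from 0.0508 to 0.0869, and also when the trend with transcript length was removed (-0.15, adjusted p = 0.228). Over all alternatives the adjusted p of *Myl6b* ranged from 0.00641 to 0.436.

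None of the adult light chains measured passed the test. *Myl1*, the fast essential light chain, had a log2 fold change of -0.17 (SE 0.07, adjusted p = 0.1001 by edgeR), and its groups overlapped. The slow form *Myl3* had -0.43 with an SE of 0.58. *Mylpf* and *Myl2*, the fast and slow regulatory light chains, had -0.24 and -0.35, and neither passed the test.

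Actin forms the thin filament. *Actc1* encodes cardiac alpha-actin, the main sarcomeric actin of developing limb muscle, and *Acta1* its adult skeletal counterpart. *Actc1* had 439, 266, 270.4, 305 and 398 CPM in Control and 111, 65.7, 205, 108 and 113 CPM in 1C-MIM. 1C-MIM 3 was the highest supplemented animal and still lay below the lowest Control animal. The means were 335.5 ± 78.5 and 120.5 ± 51.3 CPM (SD, n = 5 each), 2.78-fold apart (log2 fold change -1.48 with SE 0.27, adjusted p = 0.00606 by edgeR). *Acta1* had 33116 ± 2113 and 33307 ± 2626 CPM (SD, n = 5 each), a log2 fold change of 0.01 with an SE of 0.07 (edgeR adjusted p = 0.944). No 50-base window of the *Actc1* transcript occurs in *Acta1* or in any other gene's transcript.
Actc1, chr2:114052876-114053125, minus strand: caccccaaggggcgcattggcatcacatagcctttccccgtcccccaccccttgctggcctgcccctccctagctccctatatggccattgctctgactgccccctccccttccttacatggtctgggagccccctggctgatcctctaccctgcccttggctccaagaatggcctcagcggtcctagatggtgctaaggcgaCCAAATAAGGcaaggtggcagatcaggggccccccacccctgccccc
The *Actc1* window held a CArG box, CCAAATAAGG, at -47 to -38, a motif found in 1.47% of all promoters of this length.

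Troponin T anchors the calcium switch of the thin filament to tropomyosin. *Tnnt2* encodes the cardiac form, which embryonic skeletal muscle also makes. Its Control values were 15.8, 7.92, 7.35, 8.37 and 12.5 CPM, and its 1C-MIM values 3.07, 3.02, 3.29, 3.97 and 3.80 CPM. The 1C-MIM animals were tightly grouped, far below the lowest Control animal. Means of 10.4 ± 3.64 and 3.43 ± 0.431 CPM (SD, n = 5 each) differed 3.02-fold, and *Tnnt2* had the smallest adjusted p of the 7 genes (log2 fold change -1.59 with SE 0.21, adjusted p = 0.00056 by edgeR). The 9 *Tnnt2* transcripts in the tables had nearly the same counts, so they say nothing on splicing.
Tnnt2, chr1:135836084-135836333, plus strand: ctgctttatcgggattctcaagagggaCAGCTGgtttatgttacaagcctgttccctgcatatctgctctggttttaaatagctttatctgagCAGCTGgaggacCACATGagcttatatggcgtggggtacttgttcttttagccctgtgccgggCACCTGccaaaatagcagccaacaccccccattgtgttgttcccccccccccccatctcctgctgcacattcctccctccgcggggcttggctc
This window, before the first of 2 annotated *Tnnt2* starts, held 4 E-boxes, the closest to the start at -94 to -89.

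*Tnnt3*, the adult fast troponin T, had a log2 fold change of -0.01 (with SE 0.08, adjusted p = 0.941 by edgeR). *Tnnt1*, the slow form, fell from 10.98 ± 2.77 to 5.31 ± 0.816 CPM (SD, n = 5 each; log2 fold change -1.05 with SE 0.18, adjusted p = 0.00228 by edgeR) without overlap. Of the 12 adult counterparts tested, 1 fell, *Tnnt1*, 2 rose, *Myh1* and *Myh4*, and 9 did not pass the test, with a median log2 fold change of -0.09. These counts are too few to judge against the shares over all tested genes, 11.8% lower and 9.78% higher.

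**Figure D3:**
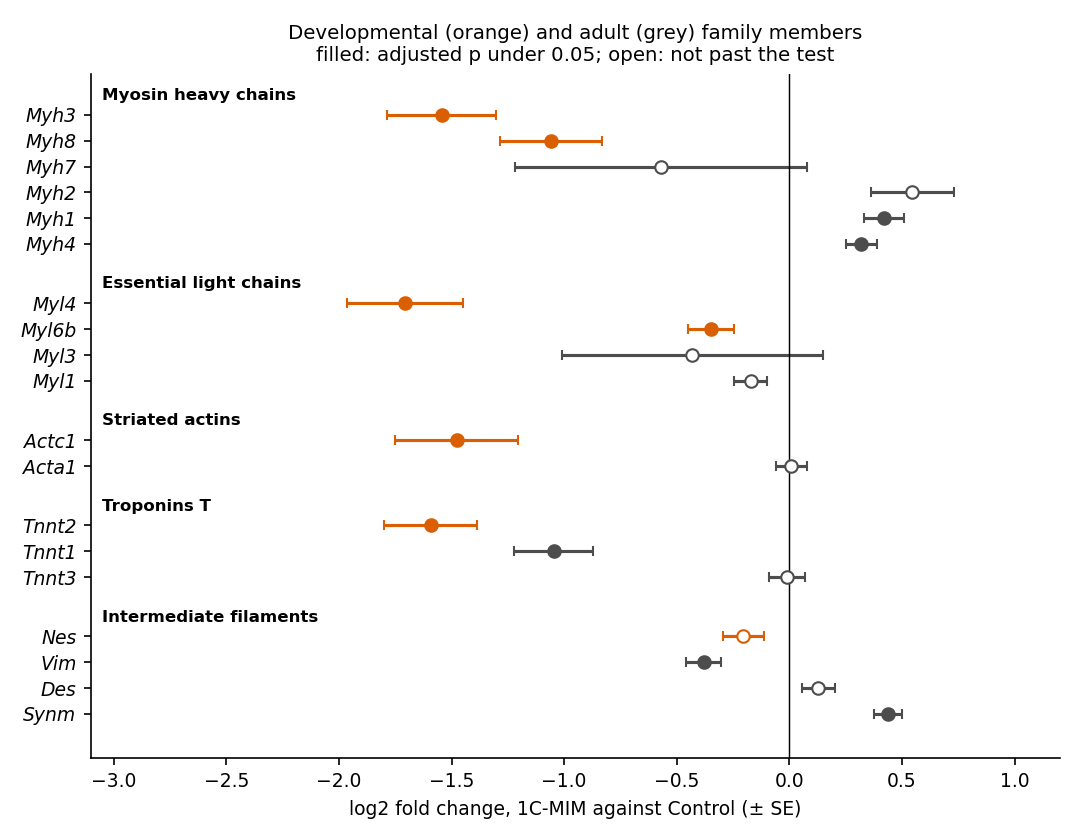
Log2 fold change (x axis, bars are SE) of the developmental genes in orange and the other members of their protein families in grey; filled points passed the test. *Myl4* (-1.71), *Tnnt2* (-1.59), *Myh3* (-1.54) and *Actc1* (-1.48) lie farthest to the left, while *Acta1* (0.01) and *Tnnt3* (-0.01) lie at 0.

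*Nes* encodes nestin, an intermediate filament protein of muscle precursors and young fibres that adult muscle keeps near its nerve and tendon junctions. Its Control values were 68.9, 54.3, 64.8, 51.8 and 70.15 CPM. Its 1C-MIM values were 56.7, 47.1, 55.5, 51.5 and 58.1 CPM. The groups overlapped, since Control 2 and Control 4 lay within the 1C-MIM range. The means were 62.0 ± 8.43 and 53.8 ± 4.48 CPM (SD, n = 5 each), with a log2 fold change of -0.20 (SE 0.09) that did not pass the test (edgeR adjusted p = 0.119). With scaling by library totals the log2 fold change of *Nes* was -0.28 and passed (adjusted p = 0.0315, in a range from 0.0237 to 0.557 over its alternatives).

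Per length, *Actc1* was by far the most abundant of the 7 in both groups. In Control animals it had 241 ± 56.5 CPM per kilobase of transcript (SD, n = 5). *Myl4* followed with 28.9 ± 12.4, then *Nes* with 10.1 ± 1.38, *Tnnt2* with 8.57 ± 3.0, *Myl6b* with 8.10 ± 0.783, *Myh8* with 6.88 ± 2.7 and *Myh3* with 4.47 ± 1.79 CPM per kilobase. Over the Control animals, the ranges of *Actc1* and *Myl4* were apart from each other and from the rest. The ranges of each neighbouring pair from *Nes* to *Myh3* overlapped, although *Myh8* was above *Myh3* within each Control animal. In 1C-MIM animals the order was *Actc1* at 86.7 ± 36.9, *Myl4* at 8.85 ± 1.38, *Nes* at 8.78 ± 0.732, *Myl6b* at 6.36 ± 0.816, *Myh8* at 3.31 ± 0.408, *Tnnt2* at 2.83 ± 0.356 and *Myh3* at 1.53 ± 0.332 CPM per kilobase. There *Myl4* overlapped with *Nes*, and *Myh8* with *Tnnt2*, and the other neighbours were apart.

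The share of each gene in its protein family does not depend on how libraries are scaled. It was taken as counts per transcript length over the sum of the family, and 7 shares were each tested with an exact two-sided permutation test, whose smallest possible p with 5 against 5 animals is 0.0079. No correction over the 7 was made. *Myh3* made up 0.0415 ± 0.0151% of the heavy chains in Control and 0.0114 ± 0.00234% in 1C-MIM (SD, n = 5 each), 3.63-fold less (exact permutation p = 0.0079). *Myh8* fell from 0.0639 ± 0.0228% to 0.0246 ± 0.00124% (exact permutation p = 0.0079), and its 1C-MIM animals lay within 0.0231 and 0.0257%. The heavy chains of both groups were mostly *Myh4*, at 93.95% in Control and 93.54% in 1C-MIM.

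*Myl4* fell from 0.326 ± 0.109% to 0.115 ± 0.0152% of the essential light chains (SD, n = 5 each; exact permutation p = 0.0079). *Actc1* fell from 1.13 ± 0.275% to 0.402 ± 0.151% of the striated actins (exact permutation p = 0.0079, n = 5 each), with *Acta1* making up the remainder. *Tnnt2* fell from 0.0387 ± 0.0122% to 0.0131 ± 0.00217% of the troponins T (exact permutation p = 0.0079, n = 5 each). In these 5 shares the groups did not overlap. Counts summed over transcripts gave a difference of -0.369 percentage points for *Actc1* and -0.108 for *Myl4*, where the reported values are -0.733 and -0.211, with the same exact permutation p. Their log2 fold changes with summed counts were -1.48 and -1.71, as in the reported fit. *Myl6b* shares of 0.0933 ± 0.00752% and 0.0827 ± 0.0105% overlapped and did not pass (exact permutation p = 0.11, n = 5 each).

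*Nes* differed between the share and the CPM. Its share of *Des*, *Vim*, *Synm* and *Nes* together fell from 0.608 ± 0.0788% to 0.483 ± 0.0137% without overlap (exact permutation p = 0.0079, n = 5 each), whereas its CPM did not pass the test. Without division by length the difference in the *Nes* share was -0.253 percentage points in place of -0.125. In the same family *Synm* (synemin) rose by 0.44 on the log2 scale (SE 0.06, edgeR adjusted p = 0.000858), *Vim* (vimentin) fell by 0.38 (SE 0.08, edgeR adjusted p = 0.00536), and *Des* (desmin) had 0.13 and did not pass the test. Of this family *Des* made up 85.8% in Control and 85.7% in 1C-MIM, and *Synm* 7.82% and 9.70%. The part of each in the change of the *Nes* share was not tested.

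**Figure D4:**
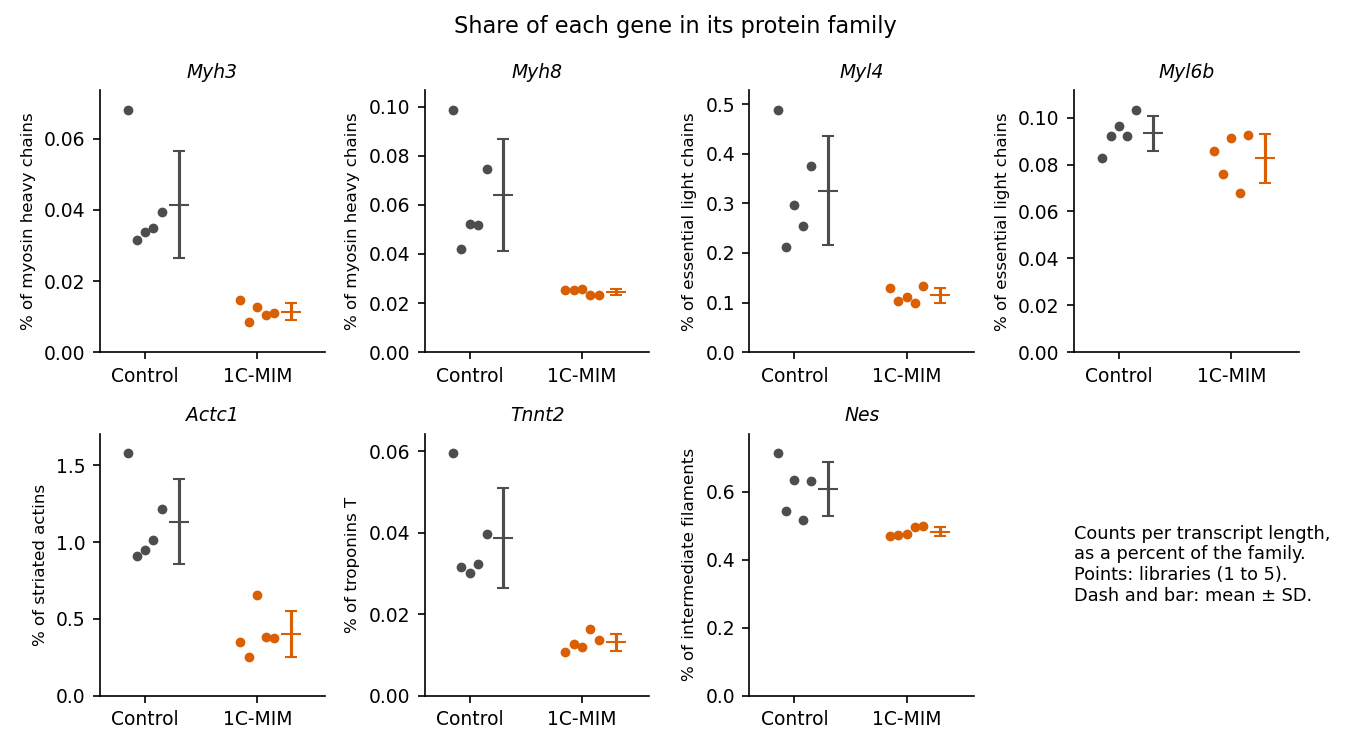
Share of each gene in its protein family, in percent of counts per transcript length (y axes start at 0); points are animals 1 to 5 of each group from left to right, dashes and bars are mean ± SD. The 5 *Actc1* points of Control lie between 0.911 and 1.58% and those of 1C-MIM between 0.249 and 0.654%, while the *Myl6b* groups overlap.

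The genes differed in how much they varied within a group. In Control animals the coefficient of variation was 42.8% for *Myl4*, 40.0% for *Myh3*, 39.2% for *Myh8*, 35.0% for *Tnnt2* and 23.4% for *Actc1*, against 13.6% for *Nes* and 9.67% for *Myl6b*. The first 4 of these varied less in 1C-MIM animals, from 12.4% for *Myh8* to 21.7% for *Myh3*, but *Actc1* varied more, at 42.5%. Control 1 was the highest and Control 5 the next for *Myh3*, *Myh8*, *Myl4*, *Actc1* and *Tnnt2*. For *Myl6b* and *Nes*, Control 5 was the highest and Control 1 the next.

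Control 1 also stood apart in markers of nerve tissue. The summed level of 16 neural markers was 59.9 CPM in Control 1, 13.2 to 16.5 CPM in the other Control animals and 11.03 to 14.1 CPM in the 1C-MIM animals. Of the 6 that could be tested, 1 (*Tubb2b*) was called lower in 1C-MIM, beside 11.8% of all tested genes. Its edgeR adjusted p of 0.0499 was at the threshold, and its Control values ran from 1.5 to 15.9 CPM. Without Control 1, *Myh3* (-1.27), *Myl4* (-1.45), *Tnnt2* (-1.39), *Actc1* (-1.36), *Myh8* (-0.82) and *Myl6b* (-0.35) were still called lower on the log2 scale. The deposited animal numbers fall into 2 ranges, with no meaning given: animals 1 to 3 of each group lie in the first and animals 4 and 5 in the second. Within the first range only *Tnnt2* was called (-1.72), while *Myh3* (-1.54), *Myl4* (-1.69), *Actc1* (-1.35), *Myh8* (-0.97) and *Myl6b* (-0.21) were lower without passing, in a fit that called 64 genes lower in all. Within the second range, *Myl4* (-1.72), *Actc1* (-1.67), *Myh3* (-1.53) and *Tnnt2* (-1.42) were called, and *Myh8* (-1.19) and *Myl6b* (-0.55) were not.

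Several of these genes are also active in the heart, in muscle spindles or in slow fibres, and markers of those were measured beside them. Counts of called markers here stand beside 11.8% lower and 9.78% higher among all tested genes. Of 12 heart markers, *Nkx2-5* had no read in any library, which allows up to 3 reads in each, and *Myl7* had at most 6 reads per library. Others had more, among them *Gja1* with 194 to 401 reads per library, *Myh6* with 48 to 177 and *Hcn4* with 33 to 120. The 12 heart markers summed to 13.5 to 19.4 CPM in Control and 16.3 to 24.5 CPM in 1C-MIM. Of 7 tested 1 rose (*Gja1*) and none fell. The 6 spindle markers summed to 18.4 to 23.7 CPM in Control and 19.1 to 23.3 CPM in 1C-MIM, with 1 lower (*Egr3*) and 1 higher (*Gfra1*). Of 9 slow fibre genes 4 fell and none rose, with sums of 136 to 205 CPM in Control and 116 to 143.5 CPM in 1C-MIM.

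Markers of other cell types were read in the same fit. Counts as small as 2 in a list are too few to judge against the shares over all tested genes, 11.8% lower and 9.78% higher. Of 12 macrophage markers 11 fell and none rose, with sums of 273 to 527.5 CPM in Control and 150.4 to 209.9 CPM in 1C-MIM. Of 10 satellite cell markers 9 were tested and 2 fell (*Vcam1* and *Sdc4*), with sums of 162 to 176 CPM in Control and 146 to 154 CPM in 1C-MIM. The others tested did not pass, among them *Pax7* (-0.15) and *Myf5* (-0.29) on the log2 scale. Most of the satellite cell sum was *Itga7*, at 105.5 to 125 CPM in Control and 104.8 to 112.2 CPM in 1C-MIM, which did not pass the test either. Of 10 endothelial markers 6 rose, with sums of 249 to 335 CPM in Control and 341 to 387 CPM in 1C-MIM. Among 10 Schwann cell and 11 smooth muscle and pericyte markers 2 each rose and none fell, with Schwann sums of 90.1 to 110.8 CPM in Control and 105 to 125 CPM in 1C-MIM and smooth muscle sums of 4711 to 5363 CPM in Control and 4960 to 5834 CPM in 1C-MIM. Most of the smooth muscle sum was *Des*, at 4088 to 4866 CPM in Control and 4163 to 5244 CPM in 1C-MIM, which skeletal fibres also make, so that sum is not a measure of smooth muscle. The part of these cell types in the differences of the 7 genes was not tested.

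A list of 25 other genes of developing and regenerating fibres was read in the same fit. In it 10 genes fell (*H19*, *Tnni1*, *Tmem8c*, *Myod1*, *Igf2*, *Myog*, *Vim*, *Runx1*, *Chrng* and *Gadd45a*), 3 rose (*Hdac4*, *Xirp1* and *Csrp3*) and 12 did not pass the test, beside 11.8% lower and 9.78% higher among all tested genes. The 12 were *Gm7325*, *Myf6*, *Ncam1*, *Chrna1*, *Dlk1*, *Mybph*, *Ankrd1*, *Acta2*, *Cdh15*, *Mest*, *Murc* and *Myh7b*. This list too was chosen with earlier results known. Its median log2 fold change was -0.25. *Tmem8c*, the fusion protein myomaker, went from 2.22 to 7.09 CPM in Control to 0.0691 to 0.631 CPM in 1C-MIM (log2 fold change -3.73 with SE 0.43, adjusted p = 0.000292 by edgeR). Its reads ran from 2 to 207 over the libraries, so the size of this change rests on values near the floor in 1C-MIM. *Tnni1*, the slow troponin I that developing muscle also makes, had 8.58 to 20.7 CPM in Control and 1.67 to 2.89 CPM in 1C-MIM (-2.62, SE 0.24, edgeR adjusted p = 8.59e-05). *H19*, an imprinted fetal transcript, had 311 to 505.5 CPM in Control and 145 to 191 CPM in 1C-MIM (-1.26, SE 0.12, edgeR adjusted p = 7.28e-05). The 3 genes that rose include *Csrp3*, a protein of the Z-disc region, so the list did not move as one.

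The patterns of the 7 genes over the 10 libraries were set against all other 13879 tested genes, by the root mean square difference of log2 CPM centred on each gene's mean. The nearest to *Myh3* were *Myl4* (0.23), *Myog* (0.23), which encodes myogenin, and *Tmsb10* (0.23), while the standard deviation of *Myh3* itself was 0.88. The nearest to *Myl4* were *Myh3*, *Tmsb10* (0.23) and *S100a4* (0.24). *Tnnt2* was nearest to *Serpinb1a* (0.20), *Postn* (0.21) and *Tmsb10* (0.22). *Actc1* was nearest to *Chrng* (0.24), the fetal subunit of the acetylcholine receptor, then *Tmsb10* and *Myh3* (both 0.31). *Myh8* was nearest to *Dynll1* (0.15), *E2f2* (0.17) and *Egr1* (0.18). *Myl6b*, with a standard deviation of 0.24, was nearest to *Mrpl52* (0.05), *D8Ertd738e* (0.06) and *Tbcb* (0.06), and *Nes*, with 0.19, to *Mrps33* (0.05), *BC037034* (0.06) and *Zfp444* (0.08). This measure takes in the size of a change as well as its shape, and no test was made on it. *Myh3* and *Myl4* were each the nearest of the other, but only by a narrow margin. Their difference was 0.2271, beside 0.2276 between *Myh3* and *Myog* and 0.2283 between *Myl4* and *Tmsb10*.

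**Figure D5:**
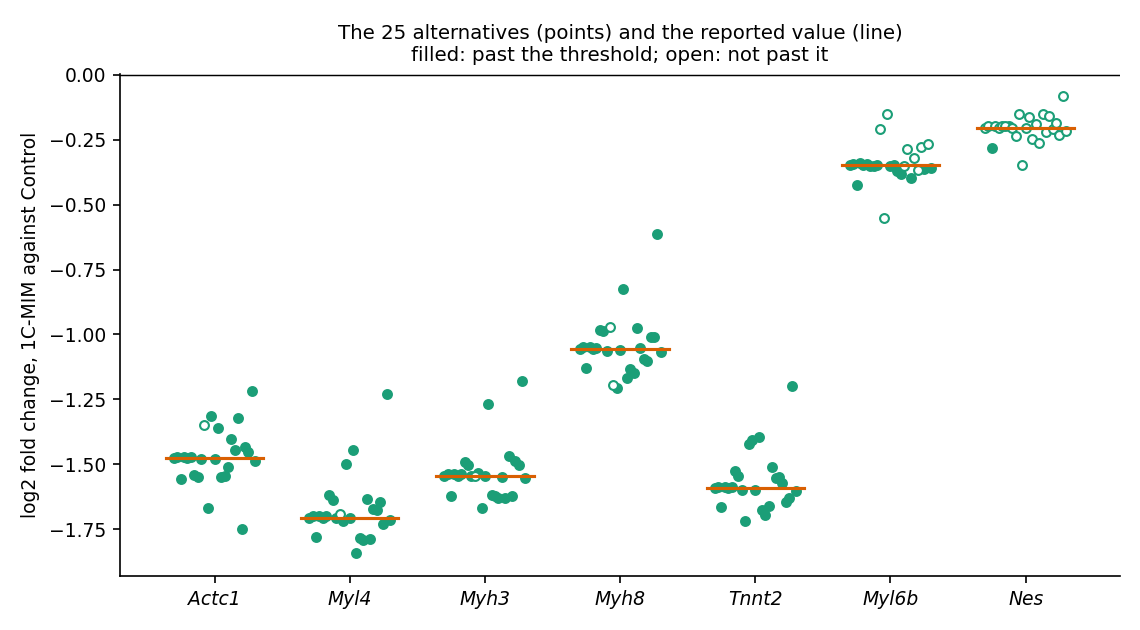
Log2 fold change (y axis) of each gene in 25 alternative fits (points; filled past the threshold, open not past it) and in the reported fit (orange line). All points lie below 0. The open points of *Myl6b* reach -0.15, and the highest *Myh8* point, at -0.61, is the fit without Control 1 and Control 5.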

How the data were processed

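RNA of quadriceps from 5 Control and 5 1C-MIM mice was sequenced, groups being taken from the labels' titles and treatments. For each of 33984 RefSeq transcripts the authors deposited a raw count in whole numbers. From the FPKM that the authors gave beside it (a count per length and per library total), only transcript lengths were derived. The deposited TPM, which sum to a fixed total per library, stayed unused. Among the tools in the submitters' processing notes are STAR, featureCounts, Salmon 1.5.2, Trim Galore 0.6.7 and DESeq2 1.28.0, with no role stated, and the build is GRCm39. No source here gives strandedness, filters or the treatment of reads that fit several genes. A read is counted for each isoform it fits, so 1 transcript per symbol was kept, that with the most counts in all 10 libraries.

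Libraries then held 28521254 to 31771296 counts, and each of the 7 genes had at least 88 reads in every library. The tests use the spread between animals, which includes counting error. After filterByExpr and TMM scaling in edgeR 4.0.16 (R 4.3.3), the groups were compared with the robust quasi-likelihood F test and Benjamini-Hochberg adjustment over 13880 genes, with a prior count of 2 for log2 values. An SE is the log2 fold change over the square root of F. Shares of protein families were compared with exact permutation tests over 252 assignments. The procedure was also run on simulated counts with the same level of spread for every gene and no animal that stands apart. That setting is simpler than these data. The alternatives tried were DESeq2 1.42.0, limma-voom, other scalings, filters and thresholds, counts summed over transcripts, each transcript alone, blocks by replicate or animal number, removal of the length trend and leaving out animals.

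The genes named are the 7 members, their family counterparts, the 3 smallest p of the developmental list, members of lists whose calls are counted, and the 3 nearest patterns of each member. *Myh13* is named as a neighbour in the myosin cluster. The members and lists were chosen with earlier results of these data known. Promoter sequences come from RefSeq in GRCm38.p6 and matched all 7 genes, and shared windows come from GENCODE M21 transcripts of GRCm38; no coordinates of the files' own build were used.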

Additional observations from a re-analysis of the deposited data

Results flagged for a closer look

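*Myh3* in Control 1 stood apart from the other 4 Control animals: its level was 45.5 CPM, where the others lay between 20.3 and 26.1 CPM, and the gap to the nearest animal was 0.771 of the whole range. Its share of the heavy chains in the same animal was 0.0681%, beside 0.0314 to 0.0393% in the others, a gap of 0.786 of the range. The critical value for 5 samples is 0.71. These were 2 of 28 groups examined, and chance flags about 1 in 20 groups. Without Control 1 the log2 fold change of *Myh3* was -1.27 in place of -1.54. What set Control 1 apart was not tested.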

How the results depend on the processing

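No direction reversed for any of the 7 genes or 7 shares in the alternatives run. Leaving out 1 animal at a time gave log2 fold changes of -1.63 to -1.27 for *Myh3*, -1.17 to -0.82 for *Myh8*, -1.84 to -1.45 for *Myl4*, -1.75 to -1.32 for *Actc1*, -1.70 to -1.39 for *Tnnt2*, -0.40 to -0.28 for *Myl6b* and -0.26 to -0.15 for *Nes*. *Nes* passed in none of these fits and the other 6 kept the call, except *Myl6b*, which lost it in 5 of them. With the first range of animal numbers alone the calls of *Myh3* (-1.54), *Myh8* (-0.97), *Myl4* (-1.69), *Actc1* (-1.35) and *Myl6b* (-0.21) were lost, and with the second range alone those of *Myh8* (-1.19) and *Myl6b* (-0.55), in fits of fewer animals. *Myl6b* also lost its call without Control 1 and Control 5 (-0.27) and with the length trend removed (-0.15). *Nes* passed with library totals (-0.28) and with the replicate block (-0.20, adjusted p = 0.0237). No family share changed its call in the alternatives with a p; within a range of animal numbers too few assignments exist to reach 0.05, and no p was computed. Counts summed over transcripts gave smaller share differences (1C-MIM minus Control, in percentage points) for *Actc1* (-0.369, reported -0.733), *Myl4* (-0.108, reported -0.211) and *Myl6b* (-0.00554, reported -0.0106). The log2 fold changes with summed counts were -1.48 for *Actc1*, -1.71 for *Myl4* and -0.35 for *Myl6b*, as in the reported fit. Without division by length the *Nes* difference was -0.253, reported -0.125. The *Myl6b* difference was -0.00600 in the first and -0.0176 in the second range of animal numbers, and that of *Nes* -0.0761 in the second.

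The count of genes called higher and lower was 1357 and 1642. It became 606 and 2896 with library totals, which lowers the share of higher calls from 45.25 to 17.3%, and 2103 and 2585 with each transcript tested alone. At an adjusted p under 0.1, 2114 were higher. With the first range of animal numbers it was 31 and 64, with the second 127 and 269, and without Control 1 and Control 5 832 and 976. Leaving out 1 animal gave 739 to 1558 higher and 941 to 1885 lower, with 739 and 941 without 1C-MIM 4, 843 and 1057 without 1C-MIM 3, and 902 higher without Control 4. The cause was not tested.

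Replicate numbers are shared by the groups. Same-numbered animals correlated at -0.0752 to 0.387 in their deviations, and only numbers 4 and 5 matched best with their own number. These values do not settle whether same-numbered animals share more than a number. The replicate block gave 1932 higher and 1965 lower, where the reported fit gave 1357 and 1642. Reads shared between heavy chain genes remain a limit for *Myh8* and, with a smaller share of windows, for *Myh3*.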
